A study of Mus musculus with 30 samples.

Results

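Iron is needed by every cell for heme and iron-sulfur proteins, and free ferrous iron drives lipid peroxidation, so that its uptake, storage and release are held in balance. In the kidney, transferrin and other iron carriers that pass the glomerular filter are taken back by the proximal tubule, where iron is stored in ferritin or returned to the blood. Hepcidin, a peptide hormone made mainly by the liver, binds the exporter ferroportin and sends it for degradation.

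The 8 iron handling genes described here were taken by name. They are the transferrin receptor *Tfrc*, the carrier transferrin (*Trf*), the importer *Slc11a2*, the ferritin chains *Fth1* and *Ftl1*, the exporter ferroportin (*Slc40a1*), hepcidin (*Hamp*) and the ferroxidase ceruloplasmin (*Cp*). All 8 were measured, each by 1 transcript cluster (the probes that stand for 1 gene) among the 22139 tested. Their levels in the kidneys of 30 mice, 5 in each of 6 groups, were read on 1 Clariom S mouse array per animal and deposited as log2 signals, in which a step of 1 means 2-fold. *Trp53(-/-)*, *Trp53(+/-)* and *Trp53(+/+)* male C57BL/6 mice, aged 9 to 11 weeks and bred from *Trp53(+/-)* parents, received aristolochic acid I (AAI), a plant nephrotoxin and carcinogen, or water. In the mutant alleles, present in every cell from the germline on, a neomycin cassette replaces part of *Trp53*. AAI was injected into the peritoneum once a day on 6 days at a dose of 3.5 mg/kg bw, and kidneys were taken 24 h after the last injection. RNA came from a piece of whole kidney, so that fewer cells of a type and less RNA per cell cannot be told apart. No value is given here for *Trp53*.

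The study made its cDNA in a pair of batches with 14 and 16 kidneys. The sample labels carry no batch, and membership was read by group from the colour bar of a published heat map, on which every statement about batch here rests. By that bar, batch 1 held all *Trp53(+/-)* AAI kidneys, 4 *Trp53(+/+)* AAI kidneys and all *Trp53(+/+)* water kidneys, and batch 2 held both *Trp53(-/-)* groups, all *Trp53(+/-)* water kidneys and 1 *Trp53(+/+)* AAI kidney that is not labelled. In *Trp53(+/-)* kidneys batch and treatment therefore cannot be told apart, whereas the *Trp53(-/-)* comparison lies within 1 batch. A batch term was fitted under each of the 5 choices of that kidney, and every such fit rests on this 1 array. The defining markers of the proximal tubule were all measured, and 8 of 8 fell in *Trp53(-/-)*, 6 of 8 in *Trp53(+/-)* and 8 of 8 in *Trp53(+/+)* kidneys given AAI. Of all clusters, 10.9%, 3.81% and 12.0% fell in these genotypes. The summed signal of these 8 genes ran from 12.78 to 12.96 in *Trp53(-/-)* AAI kidneys, against 14.29 to 14.45 in *Trp53(-/-)* water kidneys. It ran from 13.41 to 13.93 in *Trp53(+/-)* AAI kidneys against 14.31 to 14.45 in *Trp53(+/-)* water kidneys, and from 12.66 to 13.54 in *Trp53(+/+)* AAI kidneys against 14.39 to 14.74 in *Trp53(+/+)* water kidneys. Their part in the results below was not tested.

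The promoters of *Cp*, *Tfrc* and *Hamp* are shown because *Cp* and *Tfrc* changed with AAI and *Hamp* is the target of the hepcidin regulators described further below. RefSeq promoter windows (GRCm38.p6, 250 bases before to 50 bases from the start on) were found for 5 of the 8 genes, namely *Cp*, *Tfrc*, *Hamp*, *Ftl1* and *Fth1*, in 8 windows. Both strands were searched for the core of the hypoxia response element (ACGTG), of the antioxidant response element (TGACNNNGC), a STAT site (TTCNNNGAA) and a BMP response element (GGCGCC). Capitals mark the matches.
*Cp*, chr3:19956804-19957103, plus strand: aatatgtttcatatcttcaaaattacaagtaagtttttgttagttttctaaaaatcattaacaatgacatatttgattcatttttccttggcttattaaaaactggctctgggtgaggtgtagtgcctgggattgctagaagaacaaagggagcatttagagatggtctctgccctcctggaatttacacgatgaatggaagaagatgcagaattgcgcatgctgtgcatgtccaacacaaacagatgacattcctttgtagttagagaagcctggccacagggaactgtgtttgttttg
*Tfrc*, chr16:32608646-32608945, plus strand: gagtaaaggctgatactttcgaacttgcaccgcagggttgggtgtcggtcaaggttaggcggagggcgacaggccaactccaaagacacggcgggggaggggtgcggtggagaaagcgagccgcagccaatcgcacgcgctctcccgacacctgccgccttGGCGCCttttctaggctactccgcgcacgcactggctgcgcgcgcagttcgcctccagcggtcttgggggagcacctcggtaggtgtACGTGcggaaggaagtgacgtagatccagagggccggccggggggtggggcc
*Hamp*, chr7:30943980-30944279, minus strand: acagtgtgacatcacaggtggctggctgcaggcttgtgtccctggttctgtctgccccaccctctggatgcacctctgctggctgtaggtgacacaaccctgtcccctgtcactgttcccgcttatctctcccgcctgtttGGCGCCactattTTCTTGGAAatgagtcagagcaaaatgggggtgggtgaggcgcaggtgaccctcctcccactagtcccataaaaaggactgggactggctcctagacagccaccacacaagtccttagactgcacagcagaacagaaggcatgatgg
The *Hamp* window holds a STAT motif whose first base lies at -97 and a BMP motif at -109 from the start. The first *Tfrc* window holds a BMP motif at -89 and a hypoxia motif at -2, which also lies in the overlapping second *Tfrc* window. None of the 4 motifs was found in the *Cp* windows, nor in those of *Ftl1* and *Fth1*. Of all 32851 mouse windows, 19.6% hold the hypoxia core, 12.4% the antioxidant core, 8.3% the STAT motif and 11.9% the BMP motif, so each is common, and a match describes letters and not a site in use.

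*Cp* and, to a lesser extent, *Tfrc* and *Trf* were the iron handling genes that changed with AAI. *Cp* rose in every genotype, *Trf* rose in *Trp53(-/-)* kidneys and *Tfrc* fell in *Trp53(+/+)* kidneys. A gene was called in limma where its p, adjusted by Benjamini-Hochberg over all clusters, was under 0.05. Of the 8 members, 2 were called in *Trp53(-/-)* kidneys, against 26.4% of all clusters, and both rose (background 15.5% up, 10.9% down). For *Trp53(+/-)* kidneys the count was 1, against 7.34% of all clusters, and it was a rise (background 3.53% up, 3.81% down). It was 2 for *Trp53(+/+)* kidneys, against 27.3% of all clusters, with 1 rise and 1 fall (background 15.2% up, 12.0% down). These shares are near the background of each genotype. The median AAI effect over the 8 members was 0.04, 0.03 and 0.01 in *Trp53(-/-)*, *Trp53(+/-)* and *Trp53(+/+)* kidneys, against -0.01, 0.00 and -0.03 over all clusters.

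**Figure D1:**
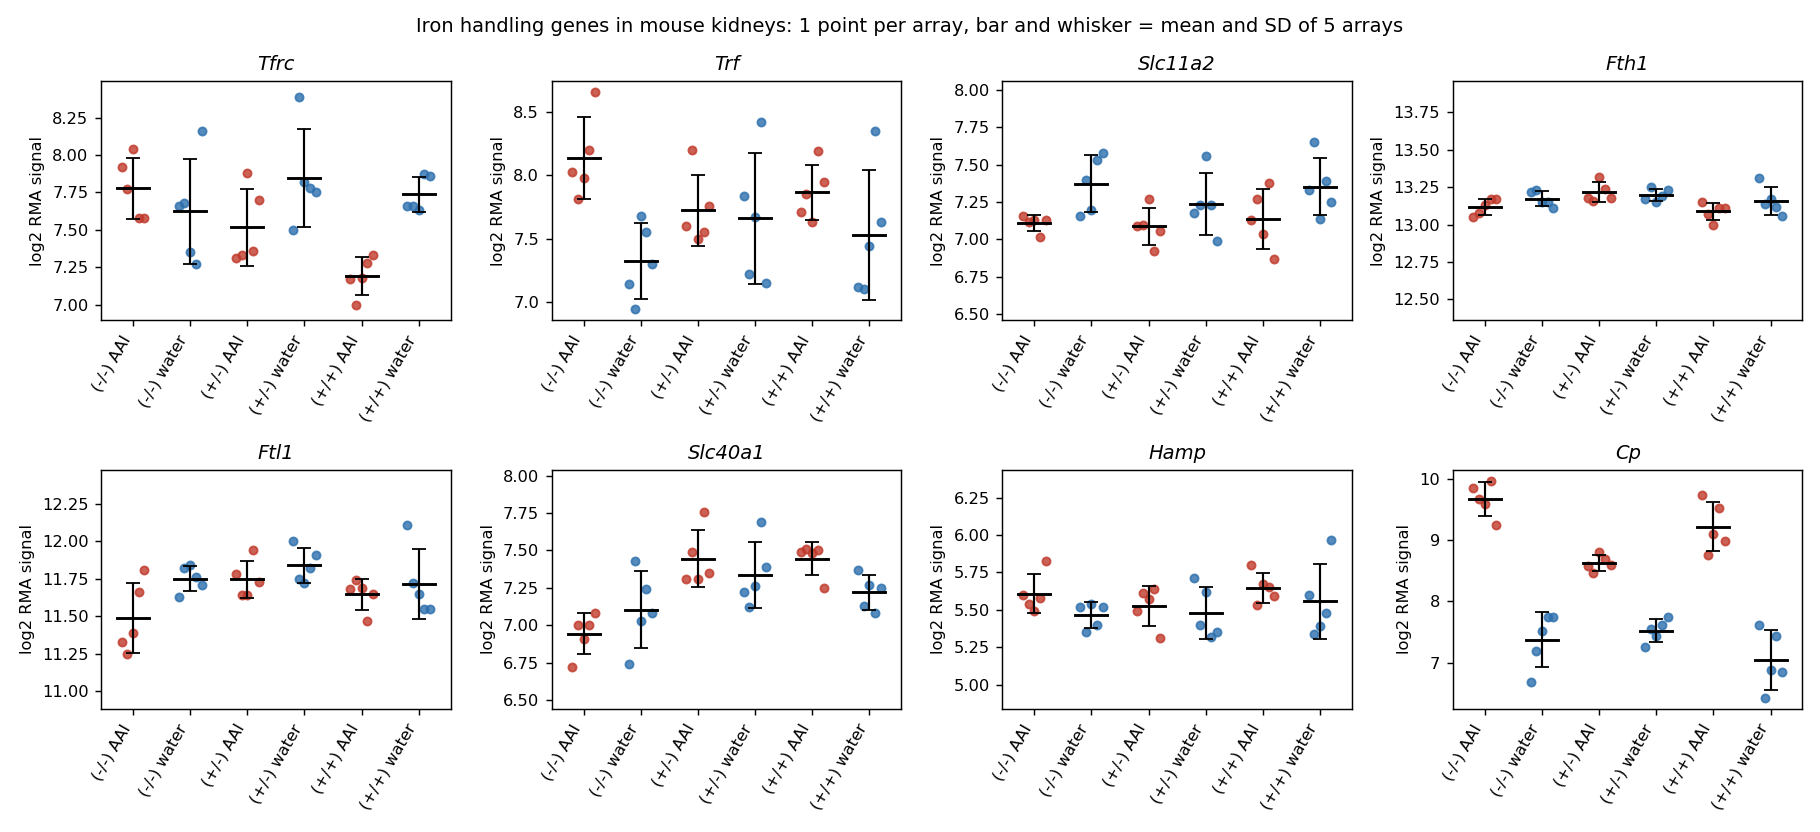
Log2 signal (vertical axis) of each of the 8 iron handling genes in the 6 groups (horizontal axis), with 1 point per array (red, AAI; blue, water) and a bar and whisker for the mean and SD of 5 arrays. The AAI and water arrays of *Cp* are apart in every genotype, whereas those of *Fth1* and *Hamp* overlap in each; the panels differ in their vertical range.

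Ceruloplasmin is a copper enzyme that oxidises ferrous iron so that transferrin can bind it, and in mice and humans it is also an acute-phase protein. *Cp* in *Trp53(-/-)* kidneys had signals of 9.85, 9.67, 9.59, 9.97 and 9.25 after AAI, against 6.68, 7.19, 7.52, 7.74 and 7.74 after water. The *Trp53(+/-)* signals were 8.58, 8.46, 8.80, 8.69 and 8.59 after AAI, against 7.26, 7.55, 7.44, 7.62 and 7.74 after water. The *Trp53(+/+)* signals were 9.74, 8.76, 9.10, 9.52 and 8.98 after AAI, against 7.62, 6.42, 6.87, 7.44 and 6.84 after water. Every AAI kidney was above every water kidney of its genotype, a separation seen in 18.1%, 8.35% and 17.8% of all clusters in *Trp53(-/-)*, *Trp53(+/-)* and *Trp53(+/+)* kidneys. *Cp* averaged 9.66 ± 0.28 in *Trp53(-/-)* AAI and 7.37 ± 0.45 in *Trp53(-/-)* water kidneys (SD, n = 5 each), a rise of 2.29 ± 0.20 (SE) or 4.9-fold (limma, adjusted p = 1.71e-10). It averaged 9.22 ± 0.40 in *Trp53(+/+)* AAI and 7.04 ± 0.49 in *Trp53(+/+)* water kidneys (SD, n = 5 each), a rise of 2.18 ± 0.20 (SE) or 4.53-fold (limma, adjusted p = 4.4e-10). These were rises past 2-fold, which 6.16% of all clusters reached with a call in either direction in *Trp53(-/-)* and 6.04% in *Trp53(+/+)* kidneys.

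The rise was smaller in *Trp53(+/-)* kidneys, where *Cp* averaged 8.63 ± 0.13 after AAI and 7.52 ± 0.18 after water (SD, n = 5 each), a difference of 1.10 ± 0.20 (SE) or 2.15-fold (limma, adjusted p = 0.000482), where 1.49% of all clusters passed both the test and 2-fold. With a batch term the rise ran from 0.53 to 1.75 with a median of 0.96 over the 5 choices, and it passed the test in 1 of the 5. *Trp53(+/-)* AAI kidneys were 1.59 ± 0.20 (SE) higher in *Cp* than the *Trp53(+/+)* water kidneys of batch 1 (limma, adjusted p = 6.27e-07), a comparison that differs in genotype as well as treatment and called 21.7% of all clusters. The 7 other members were not called in it.

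The AAI effect on *Cp* was 1.19 ± 0.29 (SE) larger in *Trp53(-/-)* than in *Trp53(+/-)* kidneys (limma interaction, adjusted p = 0.0184), 1 of 8 members where 2.58% of all clusters were called. It was 1.08 ± 0.29 (SE) smaller in *Trp53(+/-)* than in *Trp53(+/+)* kidneys (difference -1.08, limma interaction, adjusted p = 0.043), where 1.84% of all clusters were called. The first difference passed in 30 of 30 fits with 1 array left out (1.01 to 1.29) and in 1 of 5 with a batch term (0.54 to 1.77). The second passed in 16 of 30 fits with 1 array left out (-1.22 to -0.92, highest adjusted p 0.12) and in 0 of 5 with a batch term (-1.77 to -0.30). The array whose removal gave that highest p was *Trp53(+/+)* AAI replicate 1. Between *Trp53(-/-)* and *Trp53(+/+)* kidneys the effect on *Cp* differed by 0.11, with a 95% confidence interval of -0.47 to 0.70 (limma, adjusted p = 0.961).

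**Figure D2:**
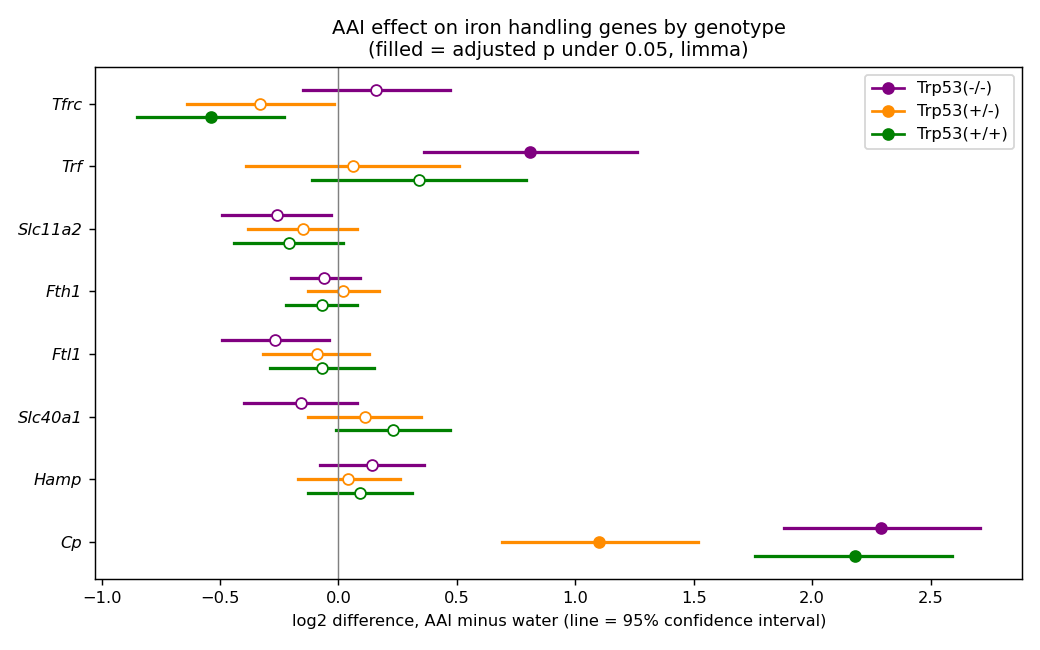
AAI effect on each iron handling gene (rows) as the log2 difference of AAI minus water (horizontal axis), with 95% confidence intervals as lines and filled points for an adjusted p under 0.05 in limma, for *Trp53(-/-)* (purple), *Trp53(+/-)* (orange) and *Trp53(+/+)* (green) kidneys, n = 5 per group. *Cp* lies at 2.29, 1.10 and 2.18 in these genotypes, and the other 7 genes lie between -0.54 and 0.81.

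Transferrin receptor 1, the product of *Tfrc*, carries transferrin-bound iron into the cell, and its mRNA is stabilised by iron regulatory proteins when iron is low. In *Trp53(+/+)* kidneys *Tfrc* had signals of 7.17, 7.00, 7.18, 7.28 and 7.33 after AAI, against 7.66, 7.66, 7.63, 7.87 and 7.86 after water. All AAI kidneys were below all water kidneys of that genotype, a separation seen in 17.8% of all clusters. The means were 7.19 ± 0.13 after AAI and 7.74 ± 0.12 after water (SD, n = 5 each). *Tfrc* fell by 0.54 on the log2 scale with an SE of 0.15 (limma, adjusted p = 0.00657), and it kept the call in each fit with 1 array left out (-0.58 to -0.49) and with each batch term.

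Erythroid precursors are rich in transferrin receptor, and 3 of 8 listed erythroid genes were measured (*Alas2*, *Slc4a1* and *Epb42*), with no globin gene among them. *Alas2*, the heme synthesis enzyme of red cell precursors, had an AAI difference of -0.39 in *Trp53(-/-)* (limma, adjusted p = 0.288), -0.67 in *Trp53(+/-)* (limma, adjusted p = 0.131) and -1.00 in *Trp53(+/+)* kidneys (limma, adjusted p = 0.00307). It was thus called in *Trp53(+/+)* kidneys, as *Tfrc* was, with no overlap there, a separation seen in 17.8% of all clusters. The difference of the AAI effect between *Trp53(-/-)* and *Trp53(+/+)* kidneys passed the test for neither gene. It was 0.60 for *Alas2* (limma, adjusted p = 0.73) and 0.70 for *Tfrc* (limma, adjusted p = 0.371). *Epb42*, a red cell membrane protein, was called in *Trp53(-/-)* kidneys (-0.58, limma, adjusted p = 0.0139), and *Slc4a1* in none. The summed signal of these 3 genes ran from 8.13 to 9.27 in *Trp53(-/-)* AAI against 8.57 to 9.05 in *Trp53(-/-)* water kidneys. It was 8.08 to 8.72 after AAI against 8.69 to 9.24 after water for *Trp53(+/-)* and 8.23 to 8.70 after AAI against 8.61 to 9.23 after water for *Trp53(+/+)*. The part of erythroid cells in the values of *Tfrc* was not tested.

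The *Trp53(-/-)* kidneys had *Tfrc* signals of 7.92, 7.77, 8.04, 7.58 and 7.58 after AAI, against 7.66, 7.68, 7.35, 7.27 and 8.16 after water. These overlap, and the difference was 0.16 ± 0.15 (SE; limma, adjusted p = 0.513). Those of *Trp53(+/-)* kidneys were 7.31, 7.33, 7.88, 7.36 and 7.70 after AAI, against 7.50, 8.39, 7.82, 7.78 and 7.75 after water, a difference of -0.33 ± 0.15 (SE; limma, adjusted p = 0.26). The groups overlapped there as well. The AAI effect differed by 0.70 ± 0.21 (SE) between *Trp53(-/-)* and *Trp53(+/+)* kidneys, which did not pass the test over all clusters (limma, adjusted p = 0.371), where 0 of 8 members and 0.104% of all clusters were called. At an unadjusted p under 0.05, 2 of the 8 passed in that comparison, *Tfrc* and *Slc40a1*. The share of all clusters at this looser threshold was not counted, so the 2 have no background here.

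Within AAI kidneys, every *Trp53(-/-)* array was above every *Trp53(+/+)* array in *Tfrc*, a separation whose share over all clusters was not counted. *Tfrc* was 0.59 ± 0.15 (SE) higher there in *Trp53(-/-)* than in *Trp53(+/+)* kidneys (limma, adjusted p = 0.025). That call was lost without *Trp53(-/-)* AAI replicate 1, 2 or 3 or without *Trp53(+/+)* AAI replicate 2 or 3 (adjusted p up to 0.0928), and with each batch term (0.45 to 0.78). *Tfrc* and *Slc40a1* were the 2 of 8 members called in this comparison, against 3.10% of all clusters. The *Trp53(-/-)* AAI kidneys were all of batch 2 and the *Trp53(+/+)* AAI kidneys, with 1 exception, of batch 1.

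Ferroportin, the product of *Slc40a1*, is the known exporter of iron from mammalian cells. Within AAI kidneys *Slc40a1* had signals of 6.72, 7.00, 6.91, 7.00 and 7.08 in *Trp53(-/-)*, against 7.31, 7.49, 7.31, 7.76 and 7.35 in *Trp53(+/-)* and 7.49, 7.51, 7.48, 7.50 and 7.25 in *Trp53(+/+)* kidneys. All *Trp53(-/-)* arrays were below all arrays of the other genotypes, a separation whose share over all clusters was not counted. The difference was -0.50 ± 0.12 (SE) against *Trp53(+/-)* (limma, adjusted p = 0.00442) and also -0.50 ± 0.12 (SE) against *Trp53(+/+)* (limma, adjusted p = 0.0132). Both passed in 30 of 30 fits with 1 array left out and in 0 of 5 with a batch term, where the values ran from -0.58 to -0.25 against *Trp53(+/-)* and from -0.57 to -0.31 against *Trp53(+/+)*. The *Trp53(-/-)* and *Trp53(+/-)* AAI kidneys lie in different batches, so that batch and genotype cannot be told apart between them. *Cp* was also higher in *Trp53(-/-)* than in *Trp53(+/-)* AAI kidneys, by 1.04 ± 0.20 (SE; limma, adjusted p = 0.000597; called with 1 of 5 batch terms), so that 2 of 8 members were called there against 10.4% of all clusters. Between *Trp53(+/-)* and *Trp53(+/+)* AAI kidneys no member was called in limma, against 1.54% of all clusters. There 2 of 8 had an unadjusted p under 0.05 (*Cp* and *Tfrc*), a threshold at which all clusters were not counted.

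Within a genotype, AAI did not change *Slc40a1* past the threshold. The difference was -0.16 ± 0.12 (SE) in *Trp53(-/-)* kidneys, 0.11 ± 0.12 in *Trp53(+/-)* and 0.23 ± 0.12 in *Trp53(+/+)* kidneys (limma, adjusted p = 0.374, 0.893 and 0.162), with overlapping groups in each. The effect differed by -0.39 between *Trp53(-/-)* and *Trp53(+/+)* kidneys (limma, adjusted p = 0.586). The water signals spanned 6.74 to 7.43 in *Trp53(-/-)*, 7.12 to 7.69 in *Trp53(+/-)* and 7.08 to 7.37 in *Trp53(+/+)* kidneys. By the batch reading, all *Trp53(+/+)* water kidneys lie in batch 1 and all *Trp53(+/-)* and *Trp53(-/-)* water kidneys in batch 2. Batch and genotype therefore cannot be told apart where water kidneys of either mutant genotype are compared with *Trp53(+/+)*. This holds for *Cp* below as well. No member was called between genotypes in water kidneys, where 0.641% of all clusters were called for *Trp53(-/-)* against *Trp53(+/+)*, 0.00% for *Trp53(-/-)* against *Trp53(+/-)* and 0.235% for *Trp53(+/-)* against *Trp53(+/+)*. At an unadjusted p under 0.05, 1 of these 24 comparisons passed in limma, *Cp* in *Trp53(+/-)* against *Trp53(+/+)* kidneys (0.48, unadjusted p = 0.0239, adjusted p = 0.363). All clusters were not counted at that threshold, and the methods' plain test with a 2-fold minimum called 0 of the 24.

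Transferrin, the plasma iron carrier, is made mainly by the liver, and its mRNA was measured here in kidney tissue. *Trf* in *Trp53(-/-)* kidneys had signals of 8.03, 7.81, 7.98, 8.20 and 8.66 after AAI, against 7.14, 6.94, 7.68, 7.55 and 7.30 after water. Every AAI kidney was above every water kidney, a separation seen in 18.1% of all clusters. The means were 8.14 ± 0.33 after AAI and 7.32 ± 0.30 after water (SD, n = 5 each). *Trf* rose by 0.81 ± 0.22 (SE), or 1.76-fold (limma, adjusted p = 0.00493), and kept the call in each fit with 1 array left out (0.68 to 0.90).

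The *Trp53(+/-)* kidneys had *Trf* signals of 7.60, 8.20, 7.50, 7.55 and 7.76 after AAI, against 7.84, 7.22, 7.67, 8.42 and 7.15 after water (difference 0.06, limma, adjusted p = 0.997). In *Trp53(+/+)* kidneys they were 7.71, 7.85, 7.63, 8.19 and 7.95 after AAI, against 7.12, 7.10, 7.44, 8.35 and 7.63 after water (difference 0.34, limma, adjusted p = 0.275). The groups overlapped in both genotypes, where single water kidneys reached the highest *Trf* signals. The AAI effect differed by 0.47 ± 0.31 (SE) between *Trp53(-/-)* and *Trp53(+/+)* kidneys (limma, adjusted p = 0.76) and by 0.75 ± 0.31 (SE) between *Trp53(-/-)* and *Trp53(+/-)* kidneys (limma, adjusted p = 0.266), so a difference between genotypes did not pass the test.

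Over the 30 arrays the genes most like *Trf* were *Abcd2* (Pearson r = 0.84, and 0.84 after the group means were taken off) and *Fabp4* (r = 0.82 and 0.76). *Fabp4*, a fatty acid binding protein of fat cells and endothelium, led to a list of 7 adipocyte genes being added after these values had been seen, of which 6 were measured. *Adipoq*, *Plin1*, *Cidec* and *Retn* had r of 0.57 to 0.75 with *Trf*, and *Lep* had 0.01. The summed signal of the 6 genes ran from 10.76 to 13.08 in *Trp53(-/-)* AAI kidneys, against 9.63 to 11.25 in *Trp53(-/-)* water kidneys. It ran from 10.37 to 11.94 in *Trp53(+/-)* AAI kidneys against 9.80 to 12.37 in *Trp53(+/-)* water kidneys, and from 10.39 to 12.40 in *Trp53(+/+)* AAI kidneys against 9.28 to 12.53 in *Trp53(+/+)* water kidneys. Most of this sum was *Fabp4*, with group means from 10.02 to 11.48, against 6.66 or less for each other gene. *Fabp4* had been picked for its likeness to *Trf* in these same arrays, so the sum is no separate measure of adipocytes. In *Trp53(-/-)* kidneys 1 of the 6 genes rose with AAI (*Fabp4*, 1.46, limma, adjusted p = 0.0392), against 15.5% of all clusters. The part of these 6 genes in the rise of *Trf* was not tested.

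**Figure D3:**
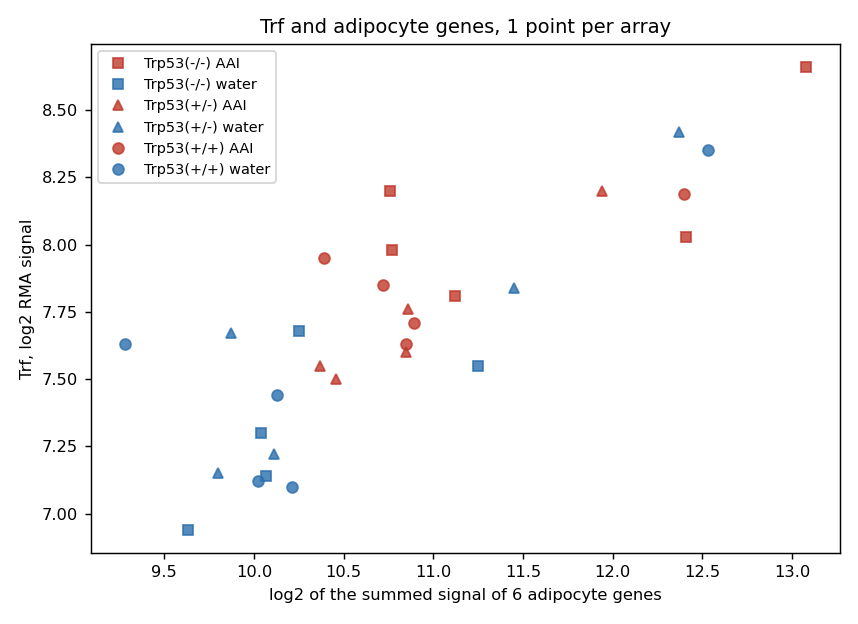
Log2 signal of *Trf* (vertical axis) against the log2 of the summed signal of 6 adipocyte genes (horizontal axis), 1 point per array, with shape for genotype and colour for treatment (red, AAI; blue, water). The highest *Trf* signals, 8.66 in a *Trp53(-/-)* AAI, 8.42 in a *Trp53(+/-)* water and 8.35 in a *Trp53(+/+)* water kidney, stand at summed signals of 13.08, 12.37 and 12.53. Other arrays depart from this order. *Trp53(-/-)* AAI replicates 3 and 4 had *Trf* at 7.98 and 8.20 with sums of 10.77 and 10.76. *Trp53(-/-)* water replicate 4 had *Trf* at 7.55 with a sum of 11.25. Most of the sum is *Fabp4*, which had been picked for its likeness to *Trf*.

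*Slc11a2* encodes DMT1, which moves ferrous iron across the apical and endosomal membranes. *Slc11a2* in *Trp53(-/-)* kidneys had 7.16, 7.12, 7.13, 7.02 and 7.13 after AAI, against 7.16, 7.40, 7.20, 7.53 and 7.58 after water, so that the highest AAI and the lowest water signal are equal to 2 decimals. The difference was -0.26 ± 0.11 (SE; limma, adjusted p = 0.0922), and it passed the test after another round of quantile normalization (-0.31, adjusted p = 0.044) and after median centring (-0.31, adjusted p = 0.0418), but in 0 of 5 fits with a batch term. It was -0.15 in *Trp53(+/-)* (limma, adjusted p = 0.717) and -0.21 in *Trp53(+/+)* kidneys (limma, adjusted p = 0.175), with overlapping groups.

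Ferritin, which stores iron, is a shell of heavy chains (*Fth1*, a ferroxidase) and light chains (*Ftl1*), and both mRNAs are held back from translation by iron regulatory proteins when iron is low, a step that arrays do not see. *Fth1* ran from 13.00 to 13.32 over all 30 kidneys. Its AAI effect was -0.06, 0.02 and -0.07 in *Trp53(-/-)*, *Trp53(+/-)* and *Trp53(+/+)* kidneys (limma, adjusted p = 0.65, 0.997 and 0.508), with 95% confidence intervals that lay between -0.22 and 0.17. *Ftl1* had 11.33, 11.25, 11.39, 11.66 and 11.81 in *Trp53(-/-)* AAI kidneys, against 11.63, 11.82, 11.84, 11.76 and 11.71 in *Trp53(-/-)* water kidneys. Replicates 1 to 3 of the AAI group were below all water kidneys and the other two were among them. The difference was -0.27 ± 0.11 (SE; limma, adjusted p = 0.0705), and it passed after another quantile normalization (-0.34, adjusted p = 0.0112), median centring (-0.32, adjusted p = 0.031), array weights (-0.32, adjusted p = 0.0168), a trended prior (adjusted p = 0.0289) or without dim clusters (adjusted p = 0.0477). Of the 30 fits with 1 array left out, it passed only without *Trp53(-/-)* AAI replicate 4 or 5 or without *Trp53(+/+)* water replicate 1 (adjusted p of 0.0473, 0.0165 and 0.0425). With a batch term it passed in 0 of 5 fits. In *Trp53(+/-)* and *Trp53(+/+)* kidneys the *Ftl1* difference was -0.09 and -0.07 (limma, adjusted p = 0.912 and 0.687). Both ferritin genes have many pseudogene copies in the mouse, and whether the probes also bind transcripts of those was not tested.

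*Hamp* ran from 5.49 to 5.83 in *Trp53(-/-)* AAI kidneys and from 5.35 to 5.54 in *Trp53(-/-)* water kidneys. It ran from 5.31 to 5.64 in *Trp53(+/-)* AAI and from 5.32 to 5.71 in *Trp53(+/-)* water kidneys, and from 5.53 to 5.80 in *Trp53(+/+)* AAI and from 5.34 to 5.97 in *Trp53(+/+)* water kidneys. The groups overlapped in every genotype, with AAI differences of 0.14, 0.04 and 0.09 in *Trp53(-/-)*, *Trp53(+/-)* and *Trp53(+/+)* kidneys (limma, adjusted p = 0.385, 0.988 and 0.589). The values carry no detection call, so whether the *Hamp* signal stood above background is not known here. *Hamp2*, a related hepcidin gene of the mouse, had AAI differences of 0.09, 0.06 and 0.03 in the same order of genotypes, and the probes may not tell these genes apart.

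Ranked by group mean, neighbouring groups overlapped for all 8 genes with the exception of *Cp*. There the 3 AAI groups came first, with *Trp53(-/-)* at 9.66, *Trp53(+/+)* at 9.22 and *Trp53(+/-)* at 8.63, and the step of 1.10 down to the *Trp53(+/-)* water kidneys was free of overlap. Neither step among the AAI groups passed the test (0.45, limma, adjusted p = 0.27, and 0.59, adjusted p = 0.179). *Tfrc* was highest in *Trp53(+/-)* water kidneys (7.85) and lowest in *Trp53(+/+)* AAI kidneys (7.19). *Slc40a1* was highest in *Trp53(+/+)* AAI kidneys (7.45), with *Trp53(+/-)* AAI kidneys next to them (7.44), and lowest in *Trp53(-/-)* AAI kidneys (6.94).

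The other iron genes were taken from 7 lists by role. The counts of each list stand against the shares of all clusters. These were 15.5% up and 10.9% down in *Trp53(-/-)*, 3.53% and 3.81% in *Trp53(+/-)* and 15.2% and 12.0% in *Trp53(+/+)* kidneys. Medians over all clusters were -0.01, 0.00 and -0.03 in these genotypes. Of 17 genes of uptake and receptors, 3 were called up and 4 down in *Trp53(-/-)* kidneys, 2 up and 3 down with the *Trp53(+/-)* genotype and 2 up and 4 down with the *Trp53(+/+)* genotype (medians 0.06, 0.00 and -0.02). *Lcn2*, which binds iron-loaded siderophores and is a marker of tubular injury, rose by 6.11 ± 0.34, 3.13 ± 0.34 and 6.61 ± 0.34 (SE) in *Trp53(-/-)*, *Trp53(+/-)* and *Trp53(+/+)* kidneys. In this order its means were 12.58, 9.61 and 11.26 after AAI, against 6.47, 6.48 and 4.65 after water. *Cubn*, the cubilin receptor that takes filtered transferrin into the proximal tubule, changed by -3.38, -1.26 and -2.86 (SE 0.22 each) in the same genotypes. All 6 effects passed the test (limma, highest adjusted p 0.000307), with no overlap between AAI and water kidneys. Such a separation was seen in 18.1%, 8.35% and 17.8% of all clusters in these genotypes. The value of *Cubn* in *Trp53(+/-)* kidneys turned to 0.25 with 1 of the 5 batch terms. *Cubn* also stands in the proximal tubule list above.

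Of 5 genes of ferritin storage and its turnover, 2 fell in *Trp53(-/-)*, none was called in *Trp53(+/-)* and 1 fell in *Trp53(+/+)* kidneys. *Ncoa4*, the receptor that sends ferritin to the lysosome, fell by 0.41 in *Trp53(-/-)* kidneys (limma, adjusted p = 0.0249) and had -0.32 in *Trp53(+/-)* and -0.23 in *Trp53(+/+)* kidneys without a call. *Pcbp1*, a chaperone that delivers iron to ferritin, fell by 0.38 in *Trp53(-/-)* and by 0.32 in *Trp53(+/+)* kidneys (limma, adjusted p = 0.0185 and 0.0479). The ferroxidase *Heph*, a relative of ceruloplasmin, rose by 0.51 in *Trp53(-/-)* and by 0.70 in *Trp53(+/+)* kidneys (limma, adjusted p = 0.0298 and 0.00232) and had -0.00 in *Trp53(+/-)* kidneys. The other gene of the oxidation list, *Hephl1*, was not called.

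Among 22 genes that regulate hepcidin, 8 rose and 1 fell in *Trp53(-/-)*, 2 rose in *Trp53(+/-)* kidneys and 7 in *Trp53(+/+)* kidneys, with medians of 0.19, 0.05 and 0.26. *Il6*, the cytokine that induces hepcidin in the liver, rose by 2.70 in *Trp53(-/-)* and by 1.63 in *Trp53(+/+)* kidneys and had 0.79 in *Trp53(+/-)* kidneys without a call (limma, adjusted p = 0.154). *Stat3*, through which *Il6* signals and whose motif stands in the *Hamp* promoter printed above, rose by 1.36, 0.71 and 1.82 in *Trp53(-/-)*, *Trp53(+/-)* and *Trp53(+/+)* kidneys (limma, highest adjusted p 0.000247). In the same order *Stat3* averaged 7.49, 6.87 and 7.23 after AAI, against 6.13, 6.16 and 5.42 after water. *Hamp* itself was not called in any genotype.

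Of 5 iron regulatory and hypoxia genes, 2 rose and 1 fell in *Trp53(-/-)* and in *Trp53(+/+)* kidneys, and 1 fell in *Trp53(+/-)* kidneys. *Aco1*, which encodes iron regulatory protein 1, changed by -1.07, -0.64 and -1.18 (SE 0.12 each) in *Trp53(-/-)*, *Trp53(+/-)* and *Trp53(+/+)* kidneys, all called and without overlap between AAI and water (limma, highest adjusted p 0.000409). In the same order, 18.1%, 8.35% and 17.8% of all clusters had no overlap. *Hif1a*, a hypoxia-inducible factor subunit, rose by 0.78 in *Trp53(-/-)* and by 0.87 in *Trp53(+/+)* kidneys, against a value of 0.38 in *Trp53(+/-)* kidneys (limma, adjusted p = 0.0647).

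Of 18 measured genes of heme synthesis, transport and breakdown (19 listed), 1 rose and 8 fell in *Trp53(-/-)*, 3 fell in *Trp53(+/-)*, and for *Trp53(+/+)* kidneys the counts were 2 up and 10 down, with medians of -0.32, -0.18 and -0.46. *Alas1*, the rate-limiting enzyme of heme synthesis outside red cells, fell by 0.82 in *Trp53(-/-)* and by 1.09 in *Trp53(+/+)* kidneys and had -0.55 in *Trp53(+/-)* kidneys (limma, adjusted p = 0.0557). The heme exporter *Flvcr1* rose by 1.24 in *Trp53(-/-)* and by 1.15 in *Trp53(+/+)* kidneys and had 0.49 in *Trp53(+/-)* kidneys (limma, adjusted p = 0.101). Of 16 measured genes of mitochondrial iron and iron-sulfur clusters (20 listed), none rose. There 9 fell in *Trp53(-/-)* kidneys, against 3 with the *Trp53(+/-)* and 7 with the *Trp53(+/+)* genotype. Of all clusters, 10.9%, 3.81% and 12.0% fell in these genotypes. *Lyrm4*, a part of the cluster assembly complex, changed by -0.87, -0.41 and -1.00 and *Cisd1*, an iron-sulfur protein of the outer mitochondrial membrane, by -0.76, -0.58 and -0.96 in *Trp53(-/-)*, *Trp53(+/-)* and *Trp53(+/+)* kidneys, all called in limma (highest adjusted p 0.0287). The *Lyrm4* value in *Trp53(+/-)* kidneys was 0.06 with 1 of the 5 batch terms.

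**Figure D4:**
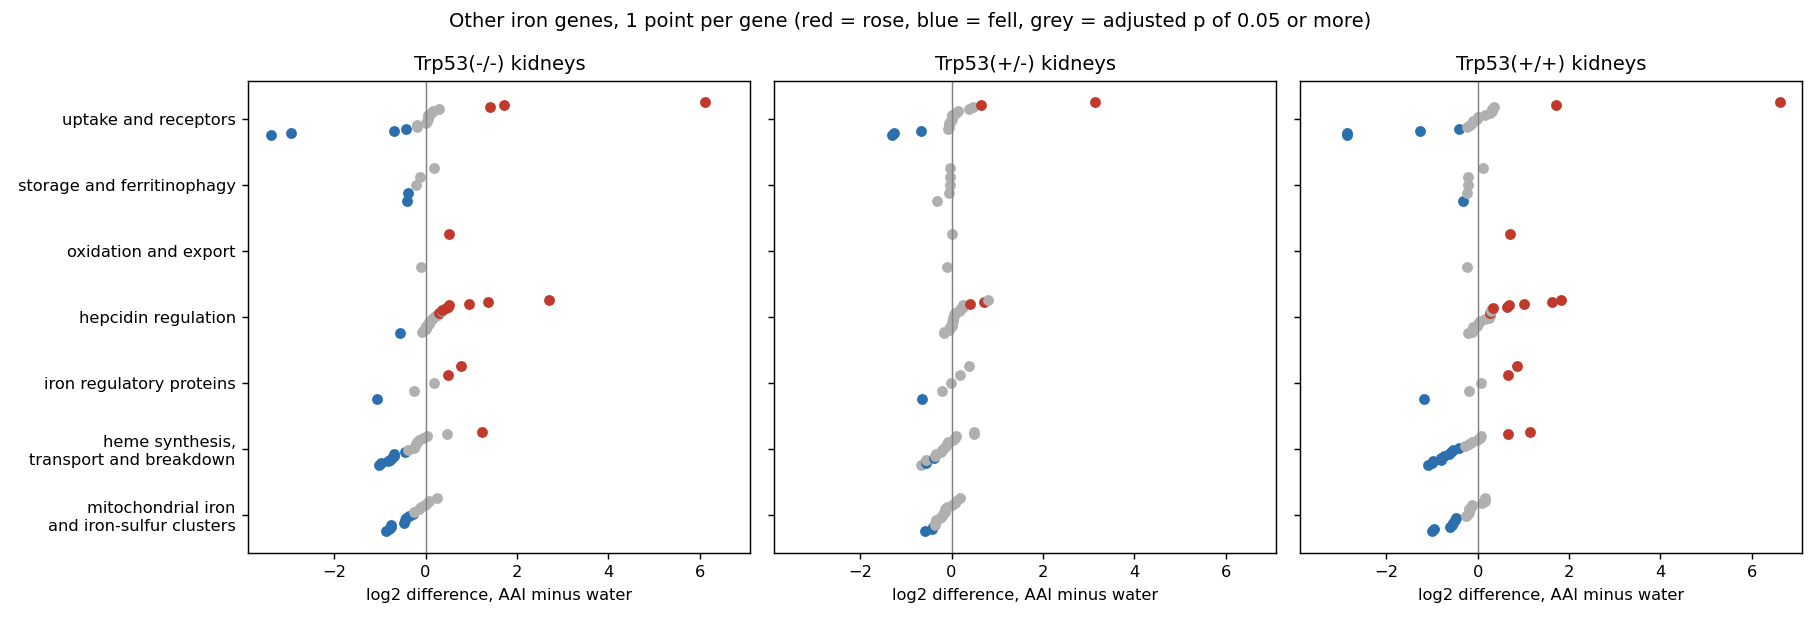
Log2 difference of AAI minus water (horizontal axis) for each measured gene of 7 lists of other iron genes (rows), in *Trp53(-/-)* (left), *Trp53(+/-)* (middle) and *Trp53(+/+)* kidneys (right), with red for called increases, blue for called decreases and grey for an adjusted p of 0.05 or more in limma. *Lcn2* lies at 6.11, 3.13 and 6.61 in these genotypes, and the mitochondrial list holds no red point.

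Markers of other cell types moved with AAI as well. Of all clusters, 15.5% rose and 10.9% fell in *Trp53(-/-)*, 3.53% and 3.81% in *Trp53(+/-)* and 15.2% and 12.0% in *Trp53(+/+)* kidneys. In *Trp53(-/-)*, *Trp53(+/-)* and *Trp53(+/+)* kidneys, 4, 2 and 5 of 7 macrophage genes rose, 5, 0 and 5 of 5 endothelial genes and 5, 4 and 5 of 5 genes of dividing cells. Of 8 genes of the thick ascending limb and distal nephron, 4 were called up and 1 down in *Trp53(-/-)* kidneys, 1 up and 1 down for *Trp53(+/-)* and 3 up and 1 down for *Trp53(+/+)*. Their summed signal ran from 13.38 to 14.01 in *Trp53(-/-)* AAI against 13.07 to 13.49 in *Trp53(-/-)* water kidneys. It was 13.24 to 13.61 after AAI against 13.21 to 13.43 after water for *Trp53(+/-)*, and 13.17 to 13.88 after AAI against 13.20 to 13.32 after water for *Trp53(+/+)*, and its part in the results was not tested. Of 8 hepatocyte genes, 1 rose and 3 fell in *Trp53(-/-)*, 1 fell in *Trp53(+/-)*, and for *Trp53(+/+)* kidneys the counts were 2 up and 3 down. The summed hepatocyte signal ran from 10.23 to 10.65 in *Trp53(-/-)* AAI against 11.28 to 11.82 in *Trp53(-/-)* water kidneys and from 10.52 to 11.03 in *Trp53(+/-)* AAI against 11.33 to 11.77 in *Trp53(+/-)* water kidneys. With the *Trp53(+/+)* genotype it ran from 10.20 to 10.63 after AAI against 10.84 to 12.16 after water. Much of this sum was *Cyp2e1* and *Ttr*, which averaged 10.55 and 9.93 in *Trp53(+/+)* water kidneys and fell there by 2.81 and 2.14 with AAI. Whether the signal of these genes came from hepatocytes or from kidney cells was not tested. *Cp* and *Trf* are also liver genes, and the part of hepatocyte RNA in their values was not tested. The summed macrophage signal ran from 9.83 to 10.56 in *Trp53(-/-)* AAI against 8.78 to 9.45 in *Trp53(-/-)* water kidneys, from 9.20 to 9.99 in *Trp53(+/-)* AAI against 8.94 to 9.10 in *Trp53(+/-)* water kidneys and from 9.71 to 10.39 in *Trp53(+/+)* AAI against 8.58 to 8.90 in *Trp53(+/+)* water kidneys. Macrophages express *Slc40a1* and *Cp* too, and the part of these cells in the values of either gene was not tested.

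By the pattern over the 30 arrays, *Cp* was most like *Lrrfip1* and *Acsl5* (r = 0.97 each, and 0.55 and 0.77 after the group means were taken off). *Ftl1* was most like *Mir692-3* and *Uap1l1* (r = 0.94 and 0.87, and 0.92 and 0.83 within groups). *Slc40a1* was most like *Ccng1* and *Cd55* (r = 0.74 and 0.70, and 0.29 and 0.21 within groups), so the likeness of *Slc40a1* lay mostly between groups and that of *Ftl1* mostly within them. *Tfrc* was most like *Dusp15* and *Ppat* (r = 0.69 and 0.67), *Slc11a2* like *4933417A18Rik* and *Epm2a* (0.71 each), *Fth1* like *Psmb6* and *Polr2e* (0.71 and 0.69) and *Hamp* like *Ftsj3* and *Cacna1s* (0.68 and 0.66). These are descriptions over arrays that share their groups and normalization.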

How the data were processed

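The authors amplified kidney RNA for Clariom S mouse arrays and deposited log2 signals made with Robust Multi-array Average (Transcriptome Analysis Console, version not given in the sources used here). Background subtraction and normalization between arrays were thus already done, and the values are relative. All 30 arrays, 5 mice in each group by the labels, were used, and their number limits the precision.

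Of 22206 transcript clusters, 19572 had a symbol through the platform table and 2634 had none. Where clusters shared a symbol the brightest was kept, and 67 were left out. In R 4.3.3, limma 3.58.1 (with statmod 1.5.0) fitted 1 mean per group over 30 arrays, with 24 residual degrees of freedom and a prior of 7.21. Contrasts were AAI against water, differences of these effects, and genotypes within a treatment, with two-sided p-values adjusted by Benjamini-Hochberg over 22139 clusters, a call at an adjusted p under 0.05 and no minimum fold. The fit was tested on simulated data.

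The members and lists were chosen with earlier results of these data known. Named genes are the members, up to 2 called genes per list with the largest AAI effect, and the 2 genes most correlated with each member. *Hamp2* and *Hephl1* were named after their values were seen, as were the adipocyte genes. Alternatives were another quantile normalization, median centring, a filter on dim clusters, only the arrays compared, array weights, a trended prior, a batch term, a block for the replicate number, all clusters, a 2-fold minimum, the methods' test, controls of the same batch, and each array left out. What is called the methods' test was a plain t-test of the groups compared, with a 2-fold minimum and no batch term. The study itself used ANOVA with batch effects removed, so its own test was not repeated. Promoters come from RefSeq. Coordinates of the clusters are not given, since their build is not named. Replicate numbers did not pair the arrays (median correlation of deviations -0.00597 over 75 pairs).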

Additional observations from a re-analysis of the deposited data

Results flagged for a closer look

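In 5-array groups, an array was marked where its gap to the nearest other array exceeded 0.71 of the group's range (Dixon's 95% value). Chance marks about 1 in 20 groups, and 13 arrays were marked in 210 groups of members and named genes, 2 of them in the 48 groups of members. *Slc11a2* was low in *Trp53(-/-)* AAI replicate 4 (7.02, others 7.12 to 7.16), and *Slc40a1* was low in *Trp53(+/+)* AAI replicate 5 (7.25, others 7.48 to 7.51). Among *Trp53(+/+)* water kidneys, replicate 1 stood apart for *Pcbp1* (7.89), *Lyz2* (6.75) and *Cyp2e1* (9.14), and replicate 2 for *Flvcr1* (5.90) and *Alas1* (9.01). Single arrays also stood apart for *Cubn* in *Trp53(-/-)* water replicate 1 (9.27), *Stat3* in *Trp53(-/-)* AAI replicate 3 (7.19), *Mki67* in *Trp53(+/-)* AAI replicate 3 (6.25), *Cyp2e1* in *Trp53(+/-)* water replicate 1 (10.19), *Il6* in *Trp53(+/+)* AAI replicate 5 (3.89) and *Emcn* in *Trp53(+/+)* AAI replicate 4 (9.96).

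The AAI effect differed between genotypes in limma's interaction test for 20 gene and pair combinations, each of which involves the *Trp53(+/-)* kidneys, where batch and treatment cannot be told apart. Of all clusters, 2.58% were called for *Trp53(-/-)* against *Trp53(+/-)* and 1.84% for *Trp53(+/-)* against *Trp53(+/+)* kidneys. Genes other than *Cp* had been named for a large AAI effect in these same data, so the count of 20 is no neutral share. For *Trp53(-/-)* against *Trp53(+/-)* kidneys the differences were 1.19 for *Cp*, 2.98 for *Lcn2*, -2.12 for *Cubn*, 1.91 for *Il6*, 0.65 for *Stat3*, -2.39 for *Slc22a6*, -2.16 for *Miox*, 0.92 for *Emcn*, 0.79 for *Cdh5*, 1.83 for *Bub1* and 1.62 for *Mki67*. For *Trp53(+/-)* against *Trp53(+/+)* kidneys they were -1.08 for *Cp*, -3.48 for *Lcn2*, 1.61 for *Cubn*, -1.10 for *Stat3*, 1.90 for *Slc22a6*, 1.79 for *Miox*, -1.06 for *Itgam*, -0.81 for *Emcn* and -0.90 for *Cdh5*.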

How the results depend on the processing

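No called effect of an iron handling gene changed sign under any alternative. Over members and named genes, fits with 1 array left out gave 3879 values on the same side of the threshold, 55 that lost the call, 24 that gained it and 32 that changed sign, and other settings gave 1782, 140, 30 and 48.

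The count of members called stood at 1 with a 2-fold minimum and with both forms of the methods' test (unadjusted p, and after Benjamini-Hochberg) in *Trp53(-/-)* kidneys, in *Trp53(+/+)* kidneys and between genotypes in AAI kidneys. It was 4 in *Trp53(-/-)* kidneys after another quantile normalization or median centring. With a batch term it was 0 in *Trp53(+/-)* kidneys with array 2, 3, 4 or 5 in batch 2, 0 for the *Trp53(-/-)* against *Trp53(+/-)* effect with array 1, 3, 4 or 5, 0 for the *Trp53(+/-)* against *Trp53(+/+)* effect with each, and 0 (array 2: 1) between genotypes in AAI kidneys. The *Trp53(+/-)* against *Trp53(+/+)* count was also 0 with median centring or a trended prior, and 0 to 1 with 1 array left out.

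With the replicate number as a block, the counts of members called were 2, 1 and 2 in *Trp53(-/-)*, *Trp53(+/-)* and *Trp53(+/+)* kidneys, 4 between genotypes in AAI kidneys and 0 in water kidneys, and no count changed. The numbers do not pair the arrays (correlations from -0.21 to 0.25, over 0.1 in 5 of 75 pairs).

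In all, 5 called effects of other genes changed sign in *Trp53(+/-)* kidneys with a batch term: *Cubn* to 0.25, *Lyrm4* to 0.06 and *Miox* to 0.10 (array 2 in batch 2), *Cyp2e1* to 0.43 (array 4) and *Bub1* to -0.16 (array 5). The other sign changes were of effects that had not passed the test, and the cause was not tested. For AAI against water in *Trp53(+/-)* kidneys, the batch term gave *Trf* -0.14 with array 1; *Fth1* -0.00, *Hamp* -0.11, *Flvcr1* -0.35, *Slc11a2* 0.02, *Alas2* 0.03, *Ftl1* 0.03, *Ttr* 0.06 and *Heph* 0.34 with array 2; *Fth1* -0.09, *Trf* -0.24, *Aqp2* -0.38 and *Pcbp1* 0.47 with array 3. It gave *Ncoa4* 0.12, *Slc11a2* 0.16, *Epb42* 0.26 and *Heph* 0.67 with array 4, and *Hamp* -0.02, *Slc40a1* -0.14 and *Aqp2* -0.83 with array 5. Against the *Trp53(+/+)* water kidneys of the same batch, *Hamp* had -0.03, *Ftl1* 0.03 and *Heph* 0.38 there, and median centring gave *Fth1* -0.02. Another quantile normalization gave *Fth1* 0.02 in *Trp53(-/-)* and *Ftl1* 0.05 in *Trp53(+/+)* kidneys.

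For differences of the AAI effect, the batch term gave, in *Trp53(-/-)* against *Trp53(+/-)* kidneys, *Hamp* -0.10 (array 1), *Slc11a2* 0.01 and *Fth1* 0.03 (array 3), *Ftl1* 0.04 (array 4) and *Slc11a2* 0.22 (array 5). In *Trp53(-/-)* against *Trp53(+/+)* kidneys it gave *Cp* -0.00 (array 2), *Fth1* -0.00 (array 3) and *Slc11a2* 0.01 (array 4). In *Trp53(+/-)* against *Trp53(+/+)* kidneys it gave *Ftl1* 0.02 and *Hamp* 0.19 (array 1), *Tfrc* -0.08 and *Ftl1* 0.12 (array 2), *Fth1* -0.04, *Slc11a2* -0.08 and *Ftl1* 0.04 (array 3), *Trf* 0.21 (array 4) and *Slc11a2* -0.34 (array 5).

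With 1 array left out, sign changes occurred in these ranges. In *Trp53(+/-)* kidneys they were -0.07 to 0.25 for *Trf*, -0.01 to 0.03 for *Fth1*, -0.14 to 0.00 for *Pcbp1* and -0.08 to 0.09 for *Heph*, and in *Trp53(+/+)* kidneys -0.11 to 0.03 for *Ftl1*. For *Trp53(-/-)* against *Trp53(+/+)* effects they were -0.12 to 0.01 for *Slc11a2*, -0.02 to 0.04 for *Fth1*, -0.05 to 0.10 for *Hamp* and -0.06 to 0.27 for *Cp*. For *Trp53(+/-)* against *Trp53(+/+)* effects they were -0.01 to 0.15 for *Slc11a2*, -0.12 to 0.02 for *Ftl1* and -0.15 to 0.01 for *Hamp*.

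The 5 arrays per group limit what differences can be seen, and the deposited values carry no detection call, so that signal over background is not known.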

Other observations

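Among the 28 pairs of iron handling genes, the ferritin chains *Fth1* and *Ftl1* had the highest correlation over the 30 arrays (r = 0.57, and 0.47 after the group means were taken off), and *Ftl1* and *Slc40a1* had 0.47 and 0.41. *Trf* and *Cp* had 0.53 over all arrays but 0.09 within groups, and *Slc11a2* and *Cp* had -0.48 but 0.09. *Tfrc* and *Slc40a1* had -0.47 and -0.35, and *Tfrc* and *Ftl1* -0.22 and -0.48. The arrays share their groups and normalization, and these values are given as descriptions.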
